A study of Homo sapiens with 18 samples.

Results

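The 39 genes described here encode the steps from glucose uptake through glycolysis to lactate, the pyruvate dehydrogenase step with its kinases, the pentose phosphate pathway and HIF1A. They were chosen by symbol, matched to the Entrez identifiers of the deposited table, and make up 39 of its 18475 genes. RNA-seq was performed on BEAS-2B (a lung epithelial line of bronchial origin), H446 (a small cell lung cancer line) and A549 (a lung adenocarcinoma line), all given as wild type. Each line had 3 non-irradiated control libraries and 3 libraries irradiated with 10 Gy X-ray, with RNA-seq 24 h after irradiation and no time stated for the controls. All cells were grown in RPMI-1640 with serum, each group stands for 1 established line, and the labels do not state whether replicates were separate cultures, so p-values measure only the spread between these libraries. The study asked how the radiation response of lung epithelial cells differs from that of lung tumor cells, with glucose metabolism as one of its themes.

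Glycolysis breaks glucose down to pyruvate and yields ATP, and pyruvate is then either reduced to lactate and exported or oxidised by pyruvate dehydrogenase in mitochondria. Pyruvate dehydrogenase kinases switch that enzyme off, and PFKFB enzymes set the level of fructose 2,6-bisphosphate, which activates phosphofructokinase 1. The pentose phosphate pathway branches off at glucose 6-phosphate, with an oxidative arm that yields NADPH and a non-oxidative arm that yields ribose 5-phosphate. Many of these genes are known targets of HIF-1, and several steps have isoforms that differ between tissues and tumours.

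Values are given as FPKM, a level per transcript length and library size. This unit was inferred, as the table does not name it. Total FPKM per library lay between 461255 and 529936, and the number of reads is unknown. Neuroendocrine markers, which many but not all small cell lung cancer lines express, were near 0 in H446: CHGA, SYP and NCAM1 were at a mean of 0.0167, 0.19 and 0.00333 FPKM in H446 controls. KRT8, an epithelial keratin, was high in all 3 lines, with control means of 522 FPKM for BEAS-2B, 1368 for H446 and 533 for A549. KRT18 and KRT7 were high as well, but the other epithelial markers were lower. In the same order, control means were 2.37, 1.11 and 0.487 FPKM for EPCAM and 0.46, 0.587 and 7.05 for CDH1. KRT19 was at 9.8, 2.29 and 26.2 FPKM, and KRT5 at 0.01 or below. In BEAS-2B cells, irradiated replicate 2 stood apart: 10 p53 target genes, taken as a check of treatment, lay at a median of -0.081 on the log2 scale against the control mean, compared with 0.85 and 0.99 in irradiated replicates 1 and 3. The same median lay between 1.36 and 1.41 in irradiated A549 libraries and between -0.050 and 0.026 in irradiated H446 libraries. Tests in BEAS-2B are therefore given with and without that library. Its irradiated means and isoform shares include it, and without it the mean of 9 of the 39 genes (HK2, GPI, PFKFB3, ALDOA, PGAM1, ENO2, PKM, DLAT and RPIA) moves to the other side of the control mean. Markers of fibroblasts and leukocytes summed to between 16.1 and 43 FPKM over all libraries. Of 5 epithelial markers tested, 3 fell and 0 rose in H446, against 23.6% and 14.8% of all genes. The list summed there to between 3868 and 3998 FPKM in controls and between 3335 and 3608 after irradiation. Of the 5 tested in A549, KRT7 fell and CDH1 rose, where 26.4% of all genes fell and 25.3% rose. The part of these markers in the responses below was not tested.

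In non-irradiated cells, the 39 genes took up 3.17% ± 0.104 of the total FPKM in BEAS-2B cells, 3.10% ± 0.00512 in H446 and 2.65% ± 0.036 in A549 (mean ± SD, n = 3, as for all levels below). GAPDH was the highest member in each line. The lowest was SLC2A3 in BEAS-2B, PDK3 in H446 and HK2 in A549. BEAS-2B had the highest control level for 18 of the 39 genes, H446 for 11 and A549 for 10, whereas A549 had the lowest for 20.

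**Figure D1:**
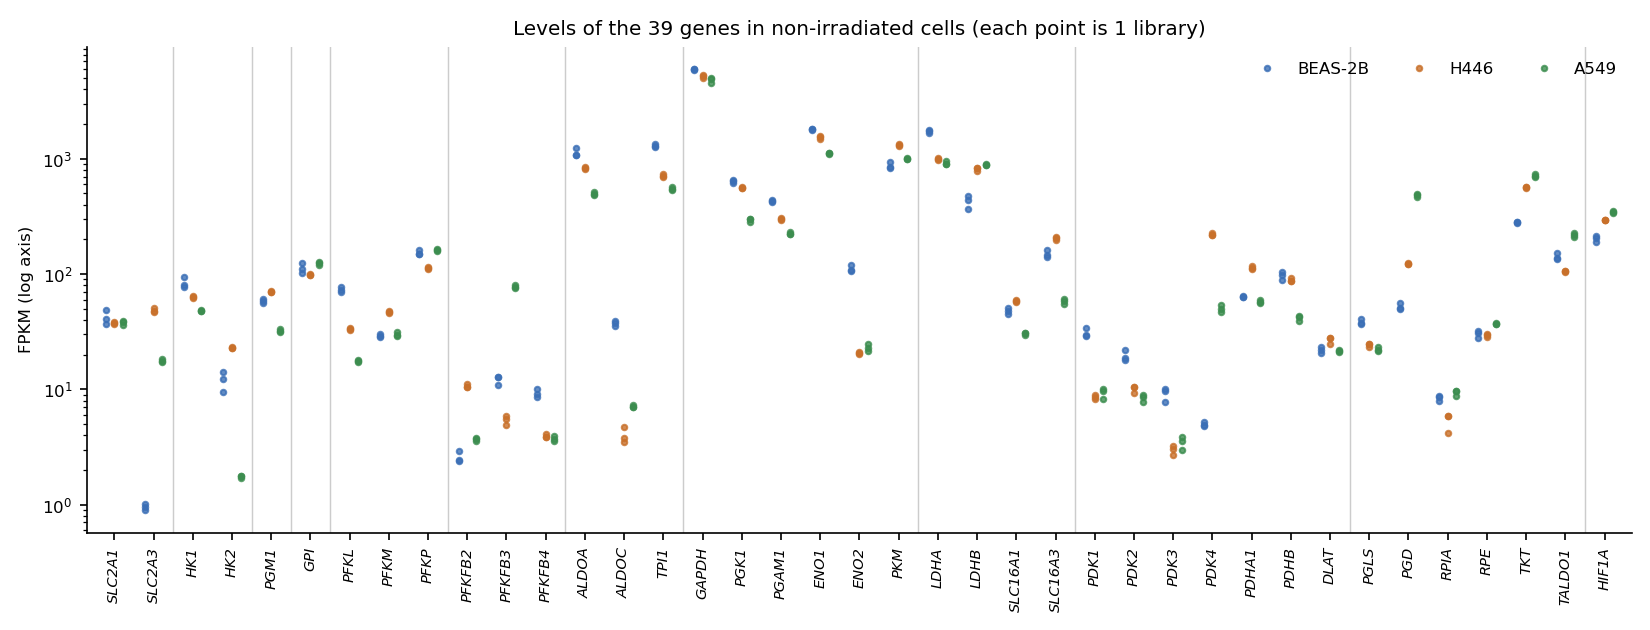
FPKM (log axis) of the 39 genes in the 9 control libraries, ordered along the pathway with grey lines between steps and 1 point per library. SLC2A3 and PDK4 lie far lower in BEAS-2B than in H446, PFKFB3 and PGD are highest in A549, and HK2 is lowest in A549.

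Tested between control lines with limma, 35 of the 39 genes differed between H446 and BEAS-2B, 15 higher and 20 lower in H446. Of all genes tested, 35.2% were higher and 45.9% lower. Between A549 and BEAS-2B, 11 were higher and 22 lower in A549, against 38.3% and 45.4% of all genes. Between H446 and A549, 21 were higher and 10 lower in H446, against 40.5% and 42.7% of all genes. Lines could not be ordered by their control level of a gene where that test missed the threshold. These genes were SLC2A1, GPI, PDHB and RPE between H446 and BEAS-2B. Between A549 and BEAS-2B they were SLC2A1, GPI, PFKM, PFKP, DLAT and RPIA. Between H446 and A549 they were SLC2A1, PFKFB4, GAPDH, ENO2, LDHB, PDK1, PDK3 and PGLS.

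Glucose entry differed between the lines by transporter and by hexokinase. SLC2A1, the transporter GLUT1, read 42.3 ± 6.25 FPKM in BEAS-2B controls, 37.8 ± 0.532 in H446 and 37.8 ± 1.49 in A549, and 51.1, 39.1 and 39 after irradiation. SLC2A3, the high-affinity transporter GLUT3, read 0.953 ± 0.0651 FPKM in BEAS-2B controls, 48.7 ± 2.12 in H446 and 17.8 ± 0.554 in A549, and 0.84, 47.3 and 16.7 after irradiation. The SLC2A3 level in H446 controls was 51.1 times that in BEAS-2B controls, where it was too low to be tested for a response. Consequently SLC2A3 made up 2.22% ± 0.167 of the summed FPKM of both transporters in BEAS-2B controls, 56.3% ± 0.9703 in H446 and 32.1% ± 0.865 in A549. HK1, the widely expressed hexokinase that traps glucose in the cell, read 83.7 ± 9.202 FPKM in BEAS-2B controls, 63.6 ± 1.11 in H446 and 48.2 ± 0.8603 in A549, and 92.9, 67.4 and 54.02 after irradiation. HK2, the inducible hexokinase, read 12 ± 2.302 FPKM in BEAS-2B controls, 23.1 ± 0.3503 in H446 and 1.74 ± 0.0379 in A549, and 12.7, 22.8 and 1.17 after irradiation. The HK2 share of both hexokinases was 26.6% ± 0.329 in H446 controls, 12.5% ± 1.21 in BEAS-2B and 3.495% ± 0.132 in A549.

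In upper glycolysis, PGM1, which links glycogen to glucose 6-phosphate, read 58.3 ± 2.39 FPKM in BEAS-2B controls, 70.04 ± 0.926 in H446 and 32.2 ± 1.09 in A549, and 60.02, 67.98 and 38.03 after irradiation. GPI, the glucose 6-phosphate isomerase, read 112 ± 11.6 FPKM in BEAS-2B controls, 98.3 ± 1.24 in H446 and 124 ± 2.94 in A549, and 119, 84.6 and 150.3 after irradiation. The platelet-type subunit was the main phosphofructokinase 1 transcript in every line, and the liver-type subunit was most prominent in BEAS-2B. PFKL, the liver-type subunit, read 73.2 ± 4.35 FPKM in BEAS-2B controls, 33.3 ± 0.731 in H446 and 17.7 ± 0.41 in A549, and 79.7, 27.5 and 21.6 after irradiation. PFKM, the muscle-type subunit, read 29.2 ± 1.12 FPKM in BEAS-2B controls, 46.9 ± 0.969 in H446 and 29.98 ± 1.14 in A549, and 28.9, 40.3 and 30.1 after irradiation. PFKP, the platelet-type subunit, read 154 ± 7.31 FPKM in BEAS-2B controls, 113 ± 2.02 in H446 and 162 ± 4.38 in A549, and 173, 102 and 159 after irradiation. ALDOA, the main aldolase, read 1134 ± 91.8 FPKM in BEAS-2B controls, 833 ± 8.62 in H446 and 500.2 ± 15.7 in A549, and 1229.96, 752 and 531 after irradiation. ALDOC, the brain-type aldolase, read 37.6 ± 1.99 FPKM in BEAS-2B controls, 3.99 ± 0.609 in H446 and 7.11 ± 0.157 in A549, and 39.6, 3.68 and 9.79 after irradiation. TPI1, the triose phosphate isomerase, read 1298 ± 44.9 FPKM in BEAS-2B controls, 714 ± 17.7 in H446 and 553 ± 15.9 in A549, and 1294, 682 and 589 after irradiation.

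The PFKFB genes differed in balance between the lines. PFKFB2, the heart-type enzyme, read 2.57 ± 0.298 FPKM in BEAS-2B controls, 10.7 ± 0.354 in H446 and 3.71 ± 0.0971 in A549, and 2.31, 14.97 and 3.75 after irradiation. PFKFB3, whose kinase activity exceeds its phosphatase activity, read 12.2 ± 1.08 FPKM in BEAS-2B controls, 5.43 ± 0.508 in H446 and 77.6 ± 2.63 in A549, and 13.1, 4.62 and 103 after irradiation. PFKFB4 read 9.297 ± 0.746 FPKM in BEAS-2B controls, 3.96 ± 0.153 in H446 and 3.76 ± 0.196 in A549, and 10.4, 3.55 and 5.63 after irradiation. PFKFB3 made up 91.2% ± 0.429 of the summed FPKM of these enzymes in A549 controls, 50.7% ± 1.77 in BEAS-2B and 26.98% ± 1.55 in H446. In H446 PFKFB2 led with 53.3% ± 1.65, compared with 10.7% ± 0.857 in BEAS-2B and 4.36% ± 0.1004 in A549.

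In lower glycolysis, each gene but PKM was highest in BEAS-2B controls, and the differences of GAPDH and ENO2 between H446 and A549 did not pass the threshold. GAPDH read 5942 ± 86.9 FPKM in BEAS-2B controls, 5188 ± 129.5 in H446 and 4826 ± 271 in A549, and 5884, 4687 and 4749 after irradiation. PGK1, the first ATP-yielding kinase, read 634 ± 15.7 FPKM in BEAS-2B controls, 559 ± 4.88 in H446 and 296 ± 10.9 in A549, and 627, 549.8 and 343 after irradiation. PGAM1, the phosphoglycerate mutase, read 431 ± 10.1 FPKM in BEAS-2B controls, 301 ± 6.56 in H446 and 226 ± 4.82 in A549, and 451, 259 and 255 after irradiation. ENO1, the ubiquitous enolase, read 1804 ± 26.6 FPKM in BEAS-2B controls, 1532 ± 40.2 in H446 and 1110.2 ± 16.4 in A549, and 1779, 1328 and 1044 after irradiation. ENO2, the neuron-type enolase used as a neuroendocrine marker, read 111 ± 6.76 FPKM in BEAS-2B controls, 20.7 ± 0.359 in H446 and 23.1 ± 1.71 in A549, and 112, 15.2 and 38.2 after irradiation. The ENO2 level in BEAS-2B controls was 5.38 times that in H446 controls. PKM, the pyruvate kinase that makes the final ATP-yielding step, read 874 ± 57.2 FPKM in BEAS-2B controls, 1322 ± 16.3 in H446 and 1004 ± 15.3 in A549, and 917, 1201 and 1025 after irradiation.

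At the lactate step, LDHA transcripts were highest in BEAS-2B. LDHA, the subunit that favours lactate formation, read 1736 ± 50.8 FPKM in BEAS-2B controls, 999.8 ± 19.1 in H446 and 919 ± 32.3 in A549, and 1645, 971 and 1124 after irradiation. LDHB, the subunit that favours pyruvate formation, read 425 ± 53.01 FPKM in BEAS-2B controls, 813 ± 25.03 in H446 and 892 ± 3.98 in A549, and 389, 745 and 946 after irradiation. LDHA made up 80.4% ± 1.54 of both subunits in BEAS-2B controls, 55.2% ± 0.336 in H446 and 50.7% ± 0.925 in A549. SLC16A1, the transporter MCT1, read 47.8 ± 2.66 FPKM in BEAS-2B controls, 58.6 ± 0.845 in H446 and 30.3 ± 0.466 in A549, and 44.3, 58.8 and 23.2 after irradiation. SLC16A3, the lactate exporter MCT4, read 150.03 ± 11.7 FPKM in BEAS-2B controls, 205 ± 5.48 in H446 and 57.9 ± 2.95 in A549, and 178, 162 and 64.7 after irradiation.

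At the pyruvate dehydrogenase step, the kinases PDK4, PDK1 and PDK3 differed most between control lines by ratio. PDK1 read 30.96 ± 2.84 FPKM in BEAS-2B controls, 8.62 ± 0.381 in H446 and 9.33 ± 0.9602 in A549, and 26.2, 8.29 and 11.3 after irradiation. PDK2 read 19.6 ± 2.07 FPKM in BEAS-2B controls, 10.1 ± 0.643 in H446 and 8.45 ± 0.609 in A549, and 23.98, 9.25 and 10.1 after irradiation. PDK3 read 9.17 ± 1.18 FPKM in BEAS-2B controls, 2.98 ± 0.277 in H446 and 3.47 ± 0.446 in A549, and 7.2, 2.997 and 6.703 after irradiation. PDK4, the kinase known to be induced by starvation and glucocorticoids, read 4.98 ± 0.243 FPKM in BEAS-2B controls, 220.2 ± 4.89 in H446 and 50.3 ± 3.65 in A549, and 4.74, 275 and 77.6 after irradiation. The PDK4 level in H446 controls was 44.2 times that in BEAS-2B controls. PDK4 made up 91.04% ± 0.183 of the summed kinase FPKM in H446, 70.3% ± 0.584 in A549 and 7.7% ± 0.473 in BEAS-2B, where PDK1 led with 47.8% ± 2.504. The subunits of the enzyme itself are given next. PDHA1, the E1 alpha subunit, read 63.6 ± 0.854 FPKM in BEAS-2B controls, 114 ± 3.09 in H446 and 57.8 ± 1.37 in A549, and 64.03, 120.2 and 60.9 after irradiation. PDHB, the E1 beta subunit, read 97.2 ± 7.78 FPKM in BEAS-2B controls, 89.3 ± 3.34 in H446 and 41.7 ± 2.18 in A549, and 87.2, 89.5 and 42.5 after irradiation. DLAT, the E2 subunit, read 21.9 ± 1.27 FPKM in BEAS-2B controls, 26.8 ± 1.72 in H446 and 21.6 ± 0.396 in A549, and 22.2, 26.1 and 19.6 after irradiation.

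In the pentose phosphate pathway, PGD, RPE, TKT and TALDO1 were highest in A549 and PGLS in BEAS-2B, while RPIA in A549 and BEAS-2B could not be ordered. PGLS, the lactonase of the oxidative arm, read 38.4 ± 2.45 FPKM in BEAS-2B controls, 24.4 ± 0.821 in H446 and 22.3 ± 0.971 in A549, and 41.8, 19.8 and 23.7 after irradiation. PGD, the NADPH-yielding 6-phosphogluconate dehydrogenase, read 52.4 ± 3.204 FPKM in BEAS-2B controls, 124 ± 1.29 in H446 and 485 ± 13.2 in A549, and 56.7, 105 and 609 after irradiation. The PGD level in A549 controls was 9.24 times that in BEAS-2B controls. RPIA, the ribose 5-phosphate isomerase, read 8.43 ± 0.399 FPKM in BEAS-2B controls, 5.303 ± 0.973 in H446 and 9.34 ± 0.465 in A549, and 8.51, 4.17 and 6.74 after irradiation. RPE, the ribulose 5-phosphate epimerase, read 30.1 ± 2.04 FPKM in BEAS-2B controls, 29.4 ± 0.801 in H446 and 37.2 ± 0.368 in A549, and 27.1, 31.02 and 35.04 after irradiation. TKT, the transketolase of the non-oxidative arm, read 282 ± 5.24 FPKM in BEAS-2B controls, 563 ± 4.76 in H446 and 717 ± 22.96 in A549, and 316, 469.7 and 942 after irradiation. TALDO1, the transaldolase, read 142 ± 9.69 FPKM in BEAS-2B controls, 106 ± 1.46 in H446 and 219 ± 7.65 in A549, and 141, 104 and 213 after irradiation. HIF1A, the oxygen-regulated subunit of HIF-1, read 203 ± 11.2 FPKM in BEAS-2B controls, 294 ± 2.03 in H446 and 347 ± 8.33 in A549, and 196, 314 and 298 after irradiation. Its protein is controlled mainly by degradation, which these data do not measure.

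After irradiation, A549 cells expressed more of all 4 pyruvate dehydrogenase kinases, of PFKFB3 and PFKFB4, of ENO2 and of the pentose phosphate enzymes PGD and TKT, and less of RPIA, SLC16A1, HK2, HIF1A and DLAT. With limma on log2(FPKM + 1), 18 of the 39 genes rose and 5 fell at an adjusted p under 0.05, against 25.3% of all genes rising and 26.4% falling. The median log2 difference was 0.087 over the 39 genes and -0.0040 over all genes tested. Of the other genes at the lactate and pyruvate dehydrogenase steps, LDHA and SLC16A3 rose, SLC16A1 and DLAT fell, and LDHB, PDHA1 and PDHB were not past the threshold. In bulk RNA, fewer cells of a kind and less RNA per cell cannot be told apart. The share of total FPKM held by the pentose phosphate members went from 0.302% ± 0.00331 to 0.369% ± 0.009 (exact permutation test, two-sided, p = 0.1, the smallest that 3 against 3 libraries allow). Most of that sum is TKT and PGD, which rose. Of the 6 members, RPIA fell, and PGLS, RPE and TALDO1 were not past the threshold. Their median log2 difference was 0.023.

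**Figure D2:**
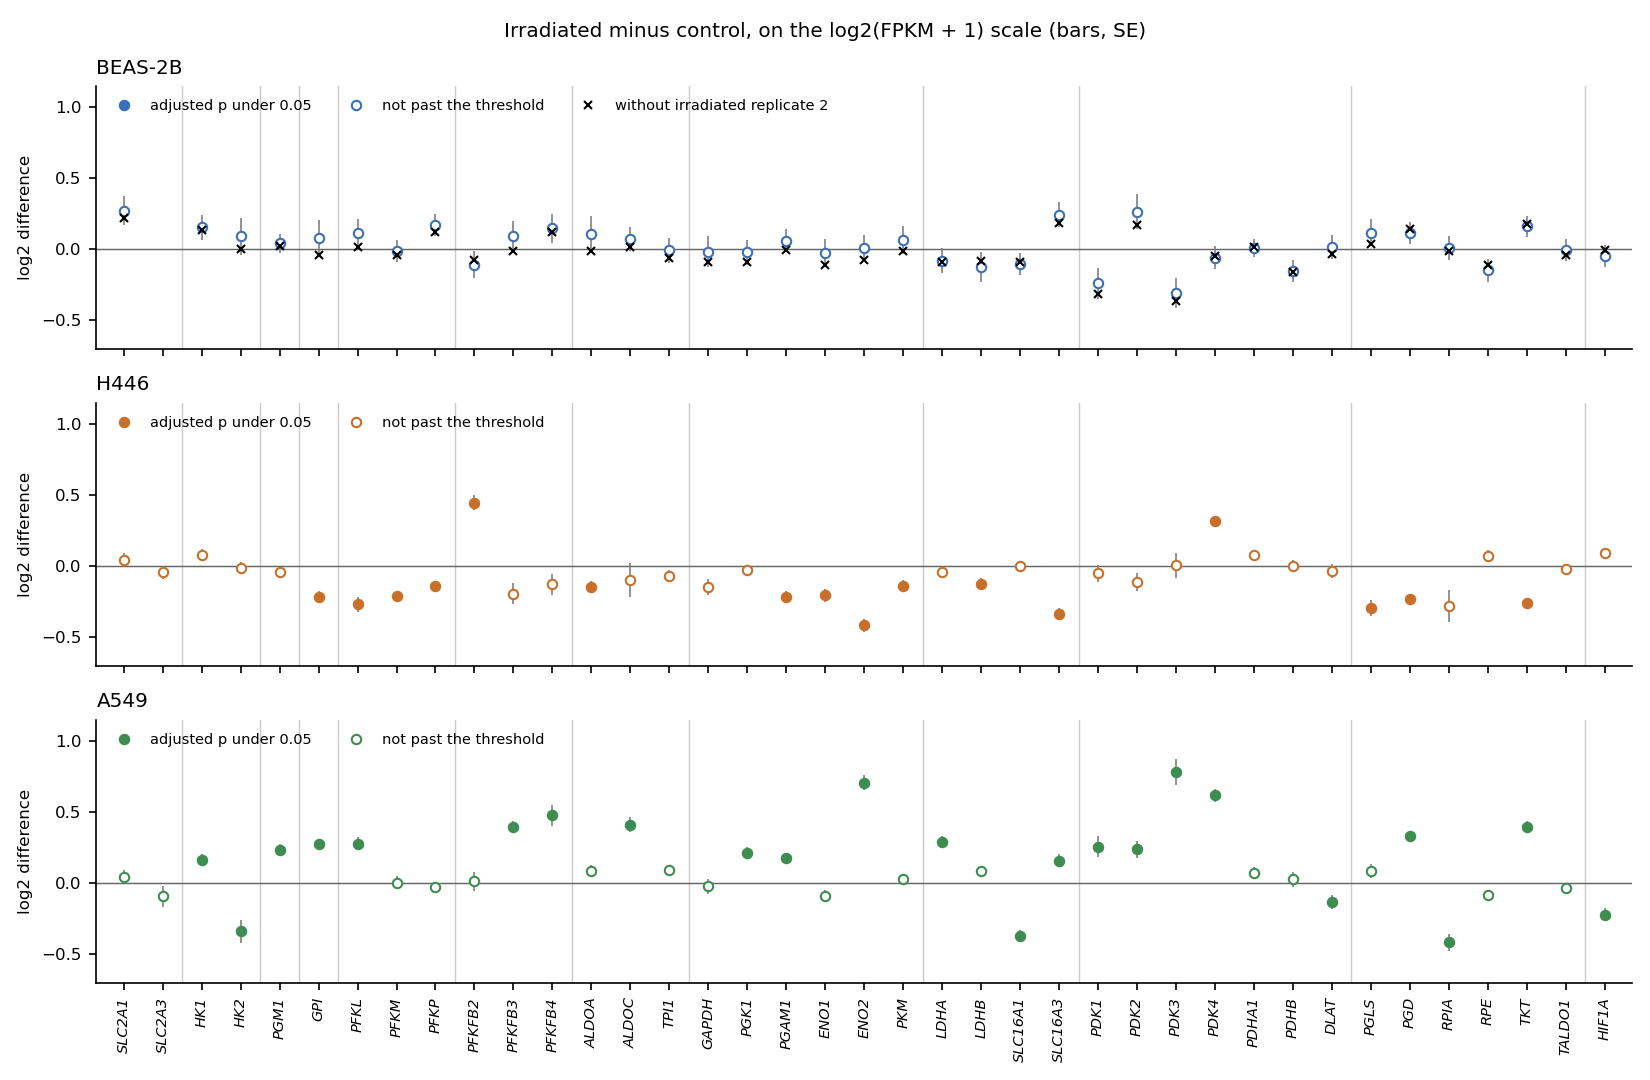
Irradiated minus control on the log2(FPKM + 1) scale for each gene and line, along the pathway. Points are estimates, bars the SE, filled points have an adjusted p under 0.05 (2 rises and 14 falls in H446, 18 and 5 in A549, 0 in BEAS-2B), and crosses give BEAS-2B without irradiated replicate 2.

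PDK3 rose most in A549. It read 3.87, 3.56 and 2.99 FPKM in the non-irradiated libraries and 6.45, 7.66 and 6 after irradiation (log2 difference 0.78, SE 0.093, adjusted p = 2.81e-05). PDK4 read 54.3, 47.2 and 49.3 without irradiation and 77.3, 76.7 and 78.8 after irradiation (log2 difference 0.62, SE 0.048, adjusted p = 9.35e-07). In both genes every irradiated library lay above every control. PDK1 (log2 difference 0.26, SE 0.075, adjusted p = 0.0127) and PDK2 (log2 difference 0.24, SE 0.061, adjusted p = 0.00615) rose less. The summed FPKM of the 4 kinases went from 71.6 ± 5.11 to 106 ± 0.855. Of the subunits these kinases act on or with, PDHA1 and PDHB were not past the threshold. DLAT read 21.9, 21.1 and 21.6 against 18.6, 19.3 and 20.8 (log2 difference -0.13, SE 0.049, adjusted p = 0.0398), a fall that kept its call in 5 of 15 alternative analyses at the same threshold. It was -0.12 (adjusted p = 0.118), -0.15 (adjusted p = 0.0519), -0.13 (adjusted p = 0.089), -0.099 (adjusted p = 0.14) and -0.12 (adjusted p = 0.0987) on the log2 scale without control replicate 1, 2 or 3 and irradiated replicate 1 or 2, respectively.

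ENO2 also rose strongly in A549 cells. It read 22.8, 24.9 and 21.5 without irradiation and 38.3, 37.1 and 39.4 after irradiation (log2 difference 0.71, SE 0.053, adjusted p = 6.09e-07), with no overlap. PFKFB4 read 3.74, 3.96 and 3.57 and then 5.06, 5.71 and 6.12 (log2 difference 0.48, SE 0.074, adjusted p = 2.17e-04). PFKFB3, the main PFKFB transcript of this line, read 76.5, 75.7 and 80.6 and then 106, 103 and 98.2 (log2 difference 0.40, SE 0.042, adjusted p = 9.94e-06). For both, every irradiated library lay above every control, and PFKFB2 was not past the threshold. ALDOC, a minor aldolase transcript, read 7, 7.04 and 7.29 and then 10.1, 9.56 and 9.69 (log2 difference 0.41, SE 0.054, adjusted p = 5.84e-05). Smaller rises were seen for TKT (0.39), PGD (0.33), LDHA (0.29), PFKL (0.28), GPI (0.28), PGM1 (0.24), PGK1 (0.21), PGAM1 (0.18), HK1 (0.16) and SLC16A3 (0.16), given as log2 differences.

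The genes that fell in A549 belong to different steps. RPIA, which makes ribose 5-phosphate, read 8.8, 9.6 and 9.61 without irradiation and 6.88, 6.48 and 6.87 after irradiation (log2 difference -0.42, SE 0.058, adjusted p = 9.96e-05). SLC16A1 read 30.6, 29.8 and 30.6 and then 22.1, 23.9 and 23.7 (log2 difference -0.37, SE 0.044, adjusted p = 2.60e-05). Its fall and the rise of SLC16A3 took the SLC16A3 share of both lactate transporters from 65.6% ± 1.47 to 73.6% ± 1.16. HK2 read 1.76, 1.77 and 1.7 and then 1.09, 1.1 and 1.32 (log2 difference -0.34, SE 0.081, adjusted p = 0.0041), a level under 2 FPKM at which the pseudocount damps the log2 difference. HIF1A read 355, 339 and 349 and then 283, 295 and 317 (log2 difference -0.22, SE 0.044, adjusted p = 0.00123). In all 4 genes the irradiated libraries lay below all controls.

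**Figure D3:**
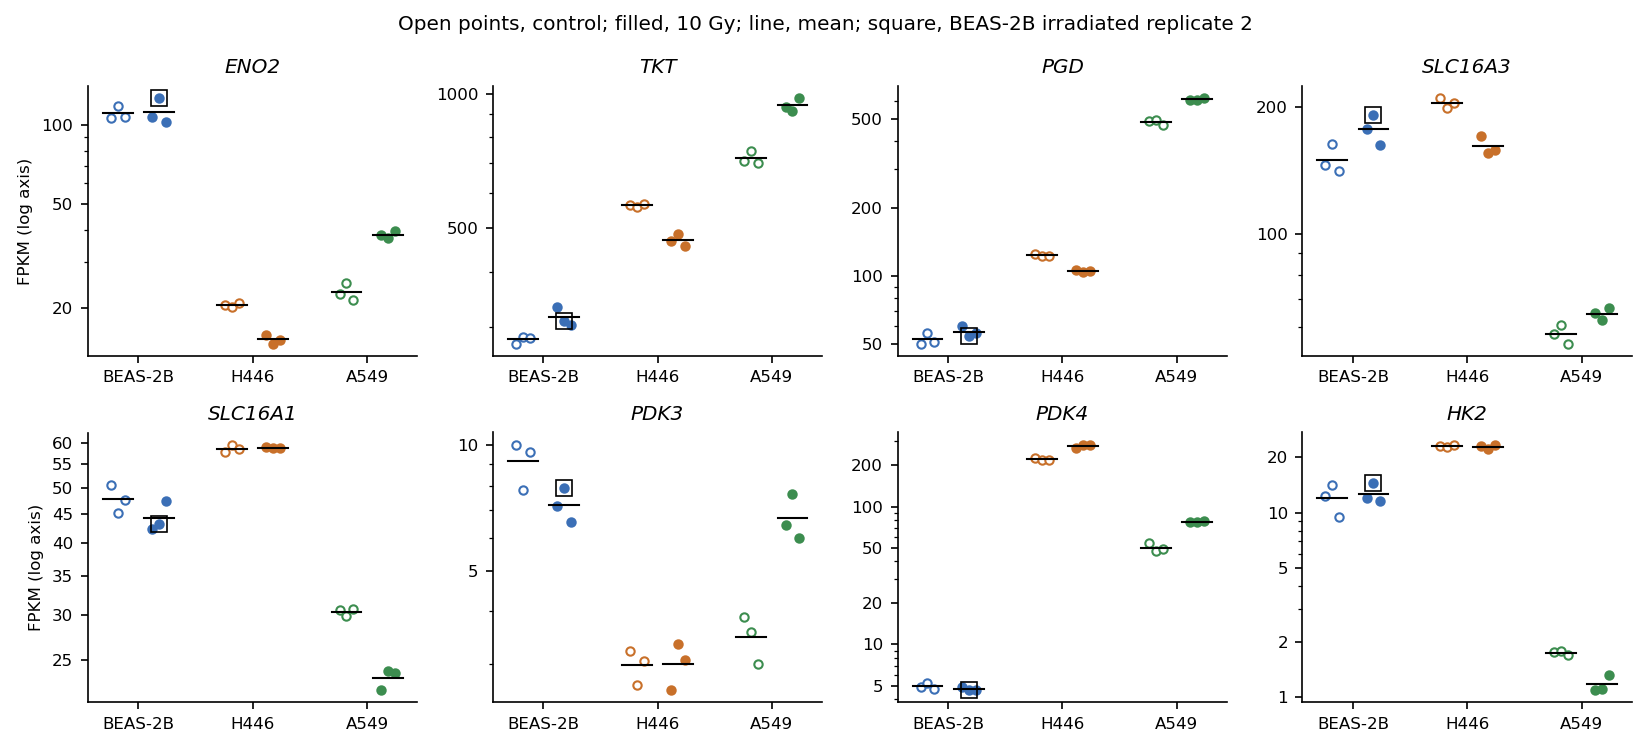
FPKM (log axis) of 8 genes in all 18 libraries, with open points for controls, filled points for 10 Gy, lines for means and a square around BEAS-2B irradiated replicate 2. ENO2, TKT, PGD and SLC16A3 lie lower after irradiation in H446 and higher in A549.

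In H446 cells, by contrast, most changed genes fell. Of 39 genes, 2 rose and 14 fell, against 14.8% and 23.6% of all genes, and the median log2 difference was -0.096 compared with -0.033 over all genes. All 3 phosphofructokinase 1 subunits, both enolases, GPI, ALDOA, PGAM1, PKM, LDHB, SLC16A3, PGLS, PGD and TKT fell, and PFKFB2 and PDK4 rose. The 39 genes went from 3.10% ± 0.00512 to 2.88% ± 0.0449 of the total FPKM (exact permutation test, two-sided, p = 0.1, the smallest possible). In this line a dependence on GC content moved with treatment: the Spearman correlation of a library's deviations with transcript GC lay between 0.35 and 0.46 in controls and between -0.50 and -0.11 after irradiation. With the GC trend removed from each library, 4 genes rose and 9 fell, against 15.9% and 15% of all genes, and the median was -0.046 compared with 0.0015 over all genes. After quantile scaling it was -0.0286 compared with 0.0037. The 9 were all among the 14, and PFKL, PFKP, ALDOA, PKM and PGLS were no longer past the threshold, while SLC2A1 and HK1 were added to the rises.

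Among the genes that rose in H446, PFKFB2 read 10.4, 11.1 and 10.6 without irradiation and 15.8, 14.3 and 14.8 after irradiation (log2 difference 0.45, SE 0.053, adjusted p = 1.56e-04). Its share of the PFKFB transcripts went from 53.3% ± 1.65 to 64.7% ± 0.247. PDK4, already the main kinase, read 226, 216 and 219 and then 268, 280.4 and 278 (log2 difference 0.32, SE 0.036, adjusted p = 1.13e-04). Neither gene's groups overlapped, and both rises held with the GC trend removed (0.42 and 0.26). PDK1, PDK2 and PDK3 were not past the threshold in H446.

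ENO2 fell most in H446. It read 20.6, 20.3 and 21.04 without irradiation and 15.9, 14.7 and 15.2 after irradiation (log2 difference -0.41, SE 0.045, adjusted p = 9.22e-05). SLC16A3 read 210.3, 199 and 204 and then 171, 156 and 158 (log2 difference -0.34, SE 0.042, adjusted p = 2.14e-04), and its difference was -0.15 (adjusted p = 0.00614) with the GC trend removed. Of the pentose phosphate genes, PGLS, TKT and PGD fell. PGLS read 24.97, 23.4 and 24.8 and then 20.8, 20.4 and 18.1 (log2 difference -0.29, SE 0.056, adjusted p = 0.00259). TKT read 564, 558 and 567 and then 469, 485 and 455 (log2 difference -0.26, SE 0.038, adjusted p = 5.45e-04). PGD, the NADPH-yielding enzyme, read 125, 123 and 123 and then 106, 105 and 105 (log2 difference -0.23, SE 0.031, adjusted p = 4.28e-04). The groups did not overlap for any of these genes. With the GC trend removed the difference of PGLS was -0.12 (adjusted p = 0.0835), that of TKT -0.15 (adjusted p = 0.0134) and that of PGD -0.15 (adjusted p = 0.00338).

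PFKL, the liver-type phosphofructokinase 1 subunit, read 34.1, 33.1 and 32.6 in H446 controls and 29.7, 25.5 and 27.3 after irradiation (log2 difference -0.27, SE 0.053, adjusted p = 0.00308), with no overlap between the groups. With the GC trend removed its difference was -0.061 (adjusted p = 0.281). PFKM fell by 0.21 on the log2 scale and still by 0.15 (adjusted p = 0.00607) with the trend removed. GAPDH read 5234, 5042 and 5288 without irradiation and 4654, 4716 and 4690.5 after irradiation and narrowly missed the threshold (log2 difference -0.15, SE 0.053, adjusted p = 0.0512). LDHA, PGK1 and HK2 were not past the threshold. None of the 16 changes in H446 reached 0.5 on the log2 scale.

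In BEAS-2B cells, no member was differentially expressed by limma when the line was fitted alone and replicates were not paired. Of the 38 genes tested (all but SLC2A3), 0 rose and 0 fell, as did 0.00% of all 11734 genes in each direction, and 3 of the 38 had an unadjusted limma p under 0.05, as had 12.3% of all genes. Without irradiated replicate 2, 1.92% of all genes rose and 0.0771% fell, 9 of the 10 p53 targets rose, and still none of the 38 genes passed the threshold. The median log2 difference over these genes was 0.014 with all libraries and -0.016 without that replicate. All 3 irradiated libraries lay above all controls for PFKP and TKT, and below for PDK1 and PDHB, against 7.48% and 8.87% of all genes. Without replicate 2, the irradiated libraries lay above all controls for PFKP, PGD and TKT and below for TPI1, GAPDH, PGK1, ENO1, PDK1, PDK3 and PDHB, against 13.7% and 13.2% of all genes.

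The correlation of deviations with GC content lay between -0.63 and 0.013 in BEAS-2B controls and between -0.31 and 0.70 after irradiation, and with the GC trend removed 0 of the members passed the threshold. The 6 genes with the smallest p in BEAS-2B were as follows. PDK3 read 10.03, 7.83 and 9.65 without irradiation and 7.14, 7.9 and 6.56 after irradiation (log2 difference -0.31, SE 0.11, adjusted p = 0.292), and the difference without replicate 2 was -0.37 (SE 0.11, adjusted p = 0.168). SLC16A3 read 146, 163 and 141 and then 178, 192 and 163 (log2 difference 0.24, SE 0.088, adjusted p = 0.314), and 0.19 (SE 0.092, adjusted p = 0.48) without replicate 2. In both genes, and in SLC2A1, the groups overlapped. SLC2A1 read 40.5, 49.3 and 37.2 and then 50.5, 55.1 and 47.6 (log2 difference 0.27, SE 0.10, adjusted p = 0.338), and 0.22 (SE 0.11, adjusted p = 0.498) without replicate 2. TKT read 276, 285 and 285 and then 333, 310.1 and 305 (log2 difference 0.16, SE 0.074, adjusted p = 0.408), and 0.17 (SE 0.086, adjusted p = 0.475) without replicate 2. PFKP read 149, 162 and 149.99 and then 171, 185 and 163 (log2 difference 0.17, SE 0.078, adjusted p = 0.411), and 0.12 (SE 0.083, adjusted p = 0.642) without replicate 2. PDK1 read 34.2, 29.2 and 29.5 and then 21.8, 28.99 and 27.8 (log2 difference -0.24, SE 0.11, adjusted p = 0.413), and -0.32 (SE 0.11, adjusted p = 0.268) without replicate 2. Replicate 2 held the highest irradiated value of SLC16A3, SLC2A1, PFKP, PDK1 and PDK3. With the GC trend removed, the log2 differences were 0.12 for SLC16A3, 0.199 for SLC2A1, 0.079 for TKT and 0.075 for PFKP. Those of PDK3 and PDK1 were then -0.27 and -0.16. When all 18 libraries shared 1 estimate of the spread, SLC2A1, SLC16A3 and TKT passed the threshold as higher in irradiated BEAS-2B cells.

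The responses of A549 and H446 cells, which share no library, went opposite ways for 7 of the 39 genes. GPI, PFKL, PGAM1, ENO2, SLC16A3, PGD and TKT fell in H446 and rose in A549, and the difference in response passed the threshold for all 7. Of the 10811 genes tested in both lines, 4.70% fell in H446 and rose in A549. PFKL no longer passed in H446 with the GC trend removed (adjusted p = 0.281), which leaves 6. The 4.70% belongs to the fits without that removal, and the share of all genes with it was not counted. The 7 come from the 14 members that fell in H446 and the 18 that rose in A549. PDK4 rose in both lines, with a difference of A549 minus H446 of 0.30 (SE 0.07, adjusted p = 0.00305). It was the only member to rise in both, as did 4.22% of all genes. No member rose in H446 and fell in A549, and none fell in both, against 4.38% and 7.57% of all genes. In a fit of all 18 libraries, 17 genes responded more positively in A549 than in H446 and 3 more negatively, against 19.3% and 15.3% of all genes. The largest differences of A549 minus H446 were those of ENO2, 1.12 (SE 0.097, adjusted p = 1.86e-07), PDK3, 0.78 (SE 0.15, adjusted p = 6.33e-04), TKT, 0.66 (SE 0.066, adjusted p = 1.07e-06), PFKFB4, 0.61 (SE 0.12, adjusted p = 9.50e-04), and PFKFB3, 0.59 (SE 0.12, adjusted p = 9.36e-04). All 5 held with the GC trend removed.

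The response of BEAS-2B was compared with each tumour line in the same fit, so these comparisons share libraries. That fit takes a single spread for all lines, so the SEs below may understate the larger spread of BEAS-2B. Against H446, 8 genes responded more positively and 3 more negatively in BEAS-2B, against 13.7% and 8.99% of all genes. Without irradiated replicate 2 these were 8 and 2, against 11.8% and 6.69%. The largest differences of BEAS-2B minus H446 were those of SLC16A3, 0.58 (SE 0.09, adjusted p = 4.77e-04), PFKFB2, -0.56 (SE 0.094, adjusted p = 8.83e-04), ENO2, 0.43 (SE 0.097, adjusted p = 0.00566), TKT, 0.42 (SE 0.066, adjusted p = 4.93e-04), and PGLS, 0.41 (SE 0.11, adjusted p = 0.0113). Without replicate 2 the values were 0.52, -0.53, 0.34, 0.44 and 0.33. With the GC trend removed they were 0.30, -0.49, 0.27, 0.25 and 0.14, and PGLS was no longer past the threshold (adjusted p = 0.29). With both the GC trend and replicate 2 removed, ENO2 was at 0.198 and no longer past it either (adjusted p = 0.0607). The 11 calls became 5 with the GC trend removed, and 17 without BEAS-2B control replicate 2 or without BEAS-2B irradiated replicate 3. For these settings the share of all genes called was not counted, so the counts describe the members alone.

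Against A549, 4 genes responded more positively and 10 more negatively in BEAS-2B, against 16% and 14.6% of all genes. Without irradiated replicate 2 these were 3 and 15, against 16.1% and 13.9%. The largest differences of BEAS-2B minus A549 were those of PDK3, -1.09 (SE 0.15, adjusted p = 3.70e-05), ENO2, -0.70 (SE 0.097, adjusted p = 4.69e-05), PDK4, -0.68 (SE 0.07, adjusted p = 1.49e-06), PDK1, -0.50 (SE 0.13, adjusted p = 0.00967), and HK2, 0.43 (SE 0.14, adjusted p = 0.0251). PDK1 and PDK3 were lower on average after irradiation in BEAS-2B, where neither passed the threshold, and rose in A549. The HK2 difference was not past the threshold without 1 of 4 libraries. It was 0.29 (adjusted p = 0.0589) without BEAS-2B control replicate 3 and 0.34 (adjusted p = 0.0633) without BEAS-2B irradiated replicate 2. It was 0.40 (adjusted p = 0.054) without A549 irradiated replicate 1 and 0.41 (adjusted p = 0.0546) without A549 irradiated replicate 2. The 14 calls became 9 without A549 control replicate 3 or without A549 irradiated replicate 2, settings for which the share of all genes called was not counted.

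Isoform shares were compared in 9 families with 22 isoforms, whose shares within a family sum to the whole and are not independent. The shares of control and irradiated libraries did not overlap for 17 isoforms in A549, 17 in H446 and 4 in BEAS-2B, and the same 4 without irradiated replicate 2. These shares have no counterpart over all genes, so the counts are a description, and with 3 against 3 libraries none can pass the threshold. The ENO2 share of enolase FPKM went from 2.04% ± 0.145 to 3.54% ± 0.274 in A549 and from 1.33% ± 0.0313 to 1.13% ± 0.00965 in H446. The LDHA share of lactate dehydrogenase went from 50.7% ± 0.925 to 54.3% ± 0.455 in A549 and from 55.2% ± 0.336 to 56.6% ± 0.1797 in H446. For SLC16A3 it went from 77.7% ± 0.711 to 73.3% ± 0.924 in H446, opposite to A549. These 5 are among the comparisons without overlap (exact permutation tests, two-sided, each p = 0.1, the smallest that 3 against 3 allow). In BEAS-2B the LDHA share was 80.4% ± 1.54 to 80.9% ± 1.06, with overlapping groups (exact permutation p = 0.6). The 4 isoforms without overlap there were SLC2A1, SLC2A3, PFKP and PDK3, and the SLC2A3 share went from 2.22% ± 0.167 to 1.62% ± 0.0592 (exact permutation p = 0.1). SLC2A3 was too low in BEAS-2B to be tested, and its FPKM values overlapped between the groups. Its share is the complement of that of SLC2A1, so these are not separate observations.

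**Figure D4:**
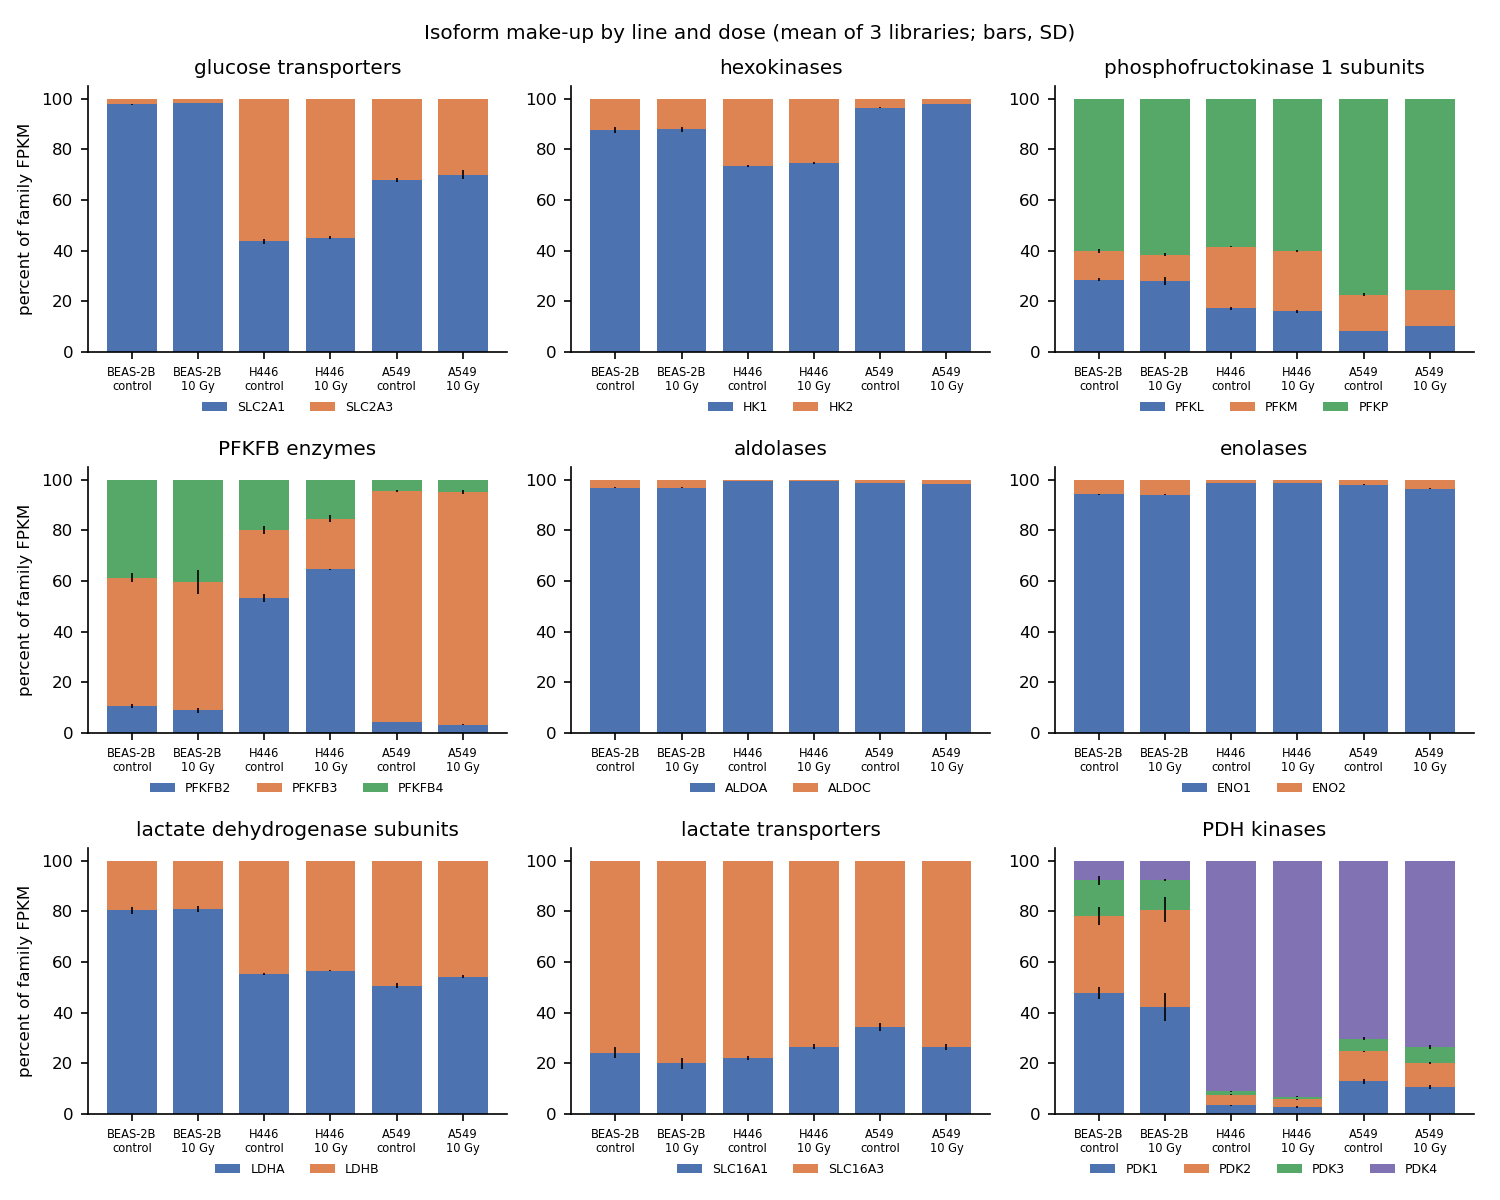
Each isoform's percent of its family's summed FPKM, as means of 3 libraries with SD bars, for 9 families in control and irradiated cells. PDK4 dominates the kinases in H446 and A549 but not in BEAS-2B, PFKFB3 leads in A549, and LDHA exceeds 80% only in BEAS-2B.

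The promoters of the 7 genes that moved in opposite directions were read from RefSeq (GRCh38.p14) to show the sequence that lies before a transcript start site of each gene. For GPI, PGAM1 and SLC16A3 that start lies inside the gene's span, 5274, 1627 and 10501 bases from its first position, and for the other 4 genes it is the first position. The core of the hypoxia response element, which HIF-1 binds, was searched as ACGTG or GCGTG on both strands over 250 bases before to 50 after the start. It was found in 22 of 36 members with a promoter entry (61.1%) and in 58.2% of 13872 genes of the table, so its share among the members is near that of all genes. The core of the antioxidant response element, TGACNNNGC, which NRF2 binds, was found in 7 of 36 members (19.4%) and in 14.6% of all genes. SLC2A3, PFKFB2 and SLC16A1 were not matched. Of the 7 genes, ENO2, GPI, PFKL and PGD hold the hypoxia core, whereas PGAM1, SLC16A3 and TKT have no match in this window. The 250 bases before that start site for the genes with a match are printed 5′ to 3′, with matches to either core on either strand in capitals, overlapping in PFKL.
ENO2, chr12:6914330-6914579, + strand: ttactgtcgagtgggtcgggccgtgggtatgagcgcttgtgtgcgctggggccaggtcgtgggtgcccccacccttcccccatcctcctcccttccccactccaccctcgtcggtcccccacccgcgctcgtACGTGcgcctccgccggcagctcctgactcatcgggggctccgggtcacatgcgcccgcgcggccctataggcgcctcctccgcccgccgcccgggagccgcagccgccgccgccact
GPI, chr19:34364742-34364991, + strand: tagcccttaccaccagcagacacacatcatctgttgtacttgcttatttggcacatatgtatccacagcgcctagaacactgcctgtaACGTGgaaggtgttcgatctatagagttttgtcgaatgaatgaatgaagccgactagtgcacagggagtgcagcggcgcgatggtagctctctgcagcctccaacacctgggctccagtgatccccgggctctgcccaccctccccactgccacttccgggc
PFKL, chr21:44299803-44300052, + strand: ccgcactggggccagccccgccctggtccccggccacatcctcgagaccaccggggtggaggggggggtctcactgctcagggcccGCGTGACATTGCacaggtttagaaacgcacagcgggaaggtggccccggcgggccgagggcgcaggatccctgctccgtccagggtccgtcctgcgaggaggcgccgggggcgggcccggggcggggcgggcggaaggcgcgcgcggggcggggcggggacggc
PGD, chr1:10398814-10399063, + strand: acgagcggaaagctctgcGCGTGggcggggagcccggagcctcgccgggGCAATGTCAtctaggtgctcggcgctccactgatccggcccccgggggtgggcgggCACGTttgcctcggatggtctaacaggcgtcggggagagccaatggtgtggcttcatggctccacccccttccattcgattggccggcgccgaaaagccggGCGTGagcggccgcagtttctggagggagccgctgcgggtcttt
The PFKL and PGD stretches hold both cores, and ENO2 and GPI hold the hypoxia core alone. In the same assembly, the gene body of ENO2 spans chr12:6914580-6923697, that of PGD chr1:10399064-10420511, that of TKT chr3:53224712-53256022 and that of SLC16A3 chr17:82217934-82240086. PDK3 lies at chrX:24465286-24550466, PDK4 at chr7:95583499-95596516 and PFKFB2 at chr1:207034416-207081027.

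Other genes of the same pathways were counted from further lists. In BEAS-2B, 0 of 20 other glycolysis genes, 0 of 11 partner genes of pyruvate and lactate, 0 of 7 other pentose phosphate genes and 0 of 20 other HIF-1 target and oxygen-sensing genes passed the threshold. Without irradiated replicate 2, TIGAR, a p53 target whose product lowers fructose 2,6-bisphosphate, rose by 0.53 (SE 0.12, adjusted p = 0.0476), and ANGPTL4, a HIF-1 and PPAR target, by 0.51 (SE 0.10, adjusted p = 0.0348). In A549 cells TIGAR rose from 5.31 ± 0.1301 to 8.26 ± 0.249 FPKM, a difference of 0.55 (SE 0.057, adjusted p = 9.09e-06). It was one of 4 of the 7 genes on the further pentose phosphate list that rose there, with PGM3 (0.26), which is on the list but belongs to hexosamine synthesis, and RBKS, the ribokinase (0.26), while 0 fell, against 25.3% and 26.4% of all genes. In H446, 0 of the 7 rose and 3 fell, H6PD by 0.29, DERA by 0.28 and PRPS2 by 0.14 on the log2 scale, against 14.8% and 23.6% of all genes.

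Of the other glycolysis genes in A549, 8 of 21 rose and 6 fell, which is to be read against the 25.3% and 26.4% of all genes that rose and fell in this line. PCK2, the mitochondrial phosphoenolpyruvate carboxykinase, went from 60.4 ± 0.645 to 19.8 ± 0.465 FPKM with a difference of -1.56 (SE 0.039, adjusted p = 5.76e-11), SLC2A12, a glucose transporter, from 8.52 ± 0.181 to 16.98 ± 0.313 FPKM with a difference of 0.92 (SE 0.048, adjusted p = 3.16e-08), and GBE1, the glycogen branching enzyme, from 19.6 ± 0.558 to 33.4 ± 2.21 FPKM with a difference of 0.74 (SE 0.051, adjusted p = 3.23e-07). In H446, where 14.8% of all genes rose and 23.6% fell, 4 of 19 rose and 4 fell, with SLC2A12 at 0.42 and PGAM5 at -0.29. In H446 SLC2A12 was under 1 FPKM in every control and passed the filter only through its irradiated libraries, so that value is no support for a rise there. Of the pyruvate and lactate partners, 5 of 12 rose and 3 fell in A549, with the largest values for LDHD (0.50), EMB (0.45), a chaperone of lactate transporters, and PC (0.38), the pyruvate carboxylase. LDHD, one of the 5, read 0.75, 1.2 and 1.05 FPKM in A549 controls. It passed the filter only through its irradiated libraries, so its value is no support for a rise. In H446, PC (-0.26) and BSG (-0.11), the partner of MCT1 and MCT4, fell and 0 of 11 rose.

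The other HIF-1 targets moved in both directions. In A549, 7 of 19 rose and 5 fell, against the same 25.3% and 26.4% of all genes, with DDIT4, an inhibitor of mTORC1, at -0.71, CA9 at 0.57 and EGLN3 at 0.54. CA9, one of the 7, read 1.55, 0.68 and 0.6 FPKM in A549 controls. It passed the filter only through its irradiated libraries, so that value is no support for a rise. In H446, 3 of 19 rose and 2 fell, against 14.8% and 23.6%, with ADM at 0.48, DDIT4 at -0.39 and BNIP3 at 0.25. DDIT4 therefore fell in both lines. NRF2 targets, listed because they are known to be high in A549, summed to between 1920 and 1984 FPKM in A549 controls and to between 2716 and 2803 after irradiation, and 5 of 6 rose, with AKR1C1 at 1.201 (SE 0.052, adjusted p = 6.11e-09). The 5 include GPX2, which read 1.76, 1.9 and 0.97 FPKM in A549 controls and passed the filter only through its irradiated libraries. PGD and TKT, also known NRF2 targets, rose in the same libraries. Of the other pentose phosphate members, RPIA fell, and PGLS, RPE and TALDO1 (log2 difference -0.038, adjusted p = 0.461) were not past the threshold. Whether these values are linked was not tested. In H446 the NRF2 list summed to between 796 and 813 FPKM in the controls and to between 753 and 844 after irradiation, and 1 of 4 rose and 1 fell.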

How the data were processed

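RNA was enriched on oligo-dT beads and sequenced single-end on a BGISEQ-500. The deposited table gives 1 value per gene and library, made by the authors and taken as FPKM from the values, as its header names no unit. Per the labels, the authors' processing notes name RSEM 1.2.12, Bowtie2 2.2.5, HISAT2 2.0.4 and build hg38, without their roles. The table holds no counts, so the depth is unknown and no counting interval is given.

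Libraries were grouped by line and treatment as labelled. Values were analysed as log2(FPKM + 1), which understates the change of low genes. Genes at 1 FPKM or more in at least 3 libraries of a line were tested with limma 3.58.1 (R 4.3.3, empirical Bayes with trend), and p-values were Benjamini-Hochberg adjusted over all genes tested with a threshold of 0.05. Responses were fitted within a line. Differences between responses and between controls came from 1 fit of all 18 libraries. Shares were compared by exact permutation tests. The GC trend was removed as each library's loess trend on transcript GC content. Scripts were tested on simulated data. Promoters, positions and symbols came from RefSeq (GRCh38.p14), and all 39 members and 18181 of 18475 identifiers matched.

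Every member is given by its level. Full statistics were given, by rule, for the members with the strongest responses and differences in each comparison, and for up to 3 called genes per list. Some listed genes are not reported here. The members and lists were chosen with earlier results of these data known, so a list's counts are a description. Alternatives were a pseudocount of 0.1, other filters and scalings, removal of the GC trend, stricter thresholds, the replicate block, a shared fit and leaving out each library. Removing the GC trend and BEAS-2B irradiated replicate 2 together was added after seeing the data.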

Additional observations from a re-analysis of the deposited data

Results flagged for a closer look

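For each pair of lines, the difference between the responses to 10 Gy was tested in the limma fit of all 18 libraries, and those named here had the largest differences past an adjusted p of 0.05. For BEAS-2B minus H446, the tested differences on the log2 scale were 0.58 for SLC16A3, -0.56 for PFKFB2, 0.43 for ENO2, 0.42 for TKT and 0.41 for PGLS. PGLS was at 0.14 with the GC trend removed (adjusted p = 0.29), and with BEAS-2B irradiated replicate 2 removed as well ENO2 was at 0.198 (adjusted p = 0.0607). For BEAS-2B minus A549 they were -1.09 for PDK3, -0.70 for ENO2, -0.68 for PDK4, -0.50 for PDK1 and 0.43 for HK2, and HK2 lost its call when any 1 of 4 libraries was left out. For A549 minus H446 they were 1.12 for ENO2, 0.78 for PDK3, 0.66 for TKT, 0.61 for PFKFB4 and 0.59 for PFKFB3. The comparisons share libraries, so a gene in more than one of them is not seen independently.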

How the results depend on the processing

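No count or named gene that was called changed sign under the alternatives run for it, and the other members were not followed through each of them. The median log2 difference of the members in BEAS-2B, 0.014, lay between -0.016 (without irradiated replicate 2) and 0.064 (without irradiated replicate 3) when 1 library was left out, and at -0.053 without replicate 2 and the GC trend, so its sign is not settled. The number of members past the threshold in BEAS-2B was 0, was 1 (SLC2A1) with the replicate block and 3 in 1 fit of all 18 libraries, and stayed at 0 when any 1 library was left out. Same-numbered libraries correlated between -0.13 and 0.32 in BEAS-2B, 0.010 and 0.19 in H446 and -0.099 and 0.010 in A549, so numbers were not taken to pair them. The replicate block gave 14 calls in H446, 22 in A549, and 16, 18 and 24 for the differences of BEAS-2B minus H446, BEAS-2B minus A549 and A549 minus H446. Requiring a log2 difference of 0.5 left 0 calls in H446, 3 in A549, 2, 3 and 8 for the same differences, and 19 between H446 and A549 controls. At an adjusted p of 0.01, BEAS-2B minus H446 had 7 calls and BEAS-2B minus A549 had 6. With the GC trend removed, BEAS-2B minus H446 had 5 calls, and 5 also when BEAS-2B irradiated replicate 2 was left out as well, a setting chosen after seeing the data. Leaving out 1 library gave 10 to 17 calls for BEAS-2B minus H446, 9 to 18 for BEAS-2B minus A549, 12 to 17 in H446 and 21 to 26 in A549. Apart from leaving out BEAS-2B irradiated replicate 2, the share of all genes called was not counted for these settings. With 1 library left out, the median log2 difference of the members ranged from -0.12 to -0.069 in H446 and from 0.071 to 0.11 in A549. That of H446 was -0.12 with a pseudocount of 0.1, -0.0286 after quantile scaling, -0.0785 after scaling to equal totals and -0.046 with the GC trend removed. The cause was not tested. Of the values of named genes, 723 kept their direction and side of the threshold, 4 newly passed it, and 44 did not pass the setting's threshold, 24 of them only because that setting made the threshold stricter. Depth limits could not be set, as the table holds no counts.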
